A study of Mus musculus with 12 samples.

Results

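The transcripts of the integrated stress response and of its endoplasmic reticulum (ER) stress sensors were followed through 10 genes in mouse ventral hippocampus. They comprise the sensors Eif2ak3, Atf6 and Ern1, the transcription factors Atf4, Ddit3 and Atf3, and the targets Trib3, Asns, Chac1 and Ppp1r15a. The genes were taken by symbol, and the 10 symbols matched 11 of the 54532 rows of the deposited count table. The extra row is a second Ddit3 entry, ENSMUSG00000116429, which had no count in any library. The other 10 rows passed the filter on low counts and were tested among 16915 genes.

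RNA was sequenced from 12 libraries in 4 groups of 3, all labelled wild type. The Control libraries carry no treatment. The CSDS libraries come from mice exposed to CSDS, the SSDS-GFP libraries from mice that received AAV8-eGFP and underwent SSDS, and the SSDS-shACOT12 libraries from mice with knockdown of the ACOT12 gene in the liver and exposure to SSDS. In this field the abbreviations commonly denote chronic and subthreshold social defeat stress, although the labels do not spell them out. The knockdown is described for the liver, while the RNA came from the brain. The column names of both SSDS groups carry the tag TBG, the usual name of a promoter active in hepatocytes, which the labels do not explain. A virus is named for the SSDS-GFP group alone, and how the knockdown was made is not stated, so virus and SSDS cannot be told apart when an SSDS group is set against Control. In SSDS-shACOT12 against Control the knockdown cannot be told apart from SSDS either. Age, sex and the number of animals behind a library are not given in the sources used here, and p-values therefore measure the spread between these libraries, which may be technical.

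The integrated stress response is a brake on protein synthesis. Stress-sensing kinases, among them the ER membrane kinase PERK encoded by Eif2ak3, phosphorylate the initiation factor eIF2, which lowers translation in general while the mRNA of ATF4 is translated better. ATF4 then activates genes of amino acid supply and of stress adaptation, including Asns, Trib3, Chac1 and the factors CHOP (Ddit3) and ATF3, and GADD34 (Ppp1r15a) brings a phosphatase to eIF2 that ends the response. PERK shares the ER membrane with ATF6 (Atf6), which is cut in the Golgi to release a transcription factor for chaperone genes, and with IRE1 (Ern1), whose nuclease activity splices the mRNA of Xbp1. Since PERK, ATF6, IRE1 and ATF4 are controlled largely through protein processing, phosphorylation or translation, mRNA levels show only part of the pathway.

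Promoter stretches that hold the known motifs of ATF4 and ATF6 are printed to show how these motifs read in the genes described. RefSeq promoters (build GRCm38.p6, 250 bases before to 50 bases after the transcription start) were found for 9 of the 10 genes, all but Atf6. The C/EBP-ATF response element bound by ATF4 with its partners (TGATGNAA, searched on both strands) was present in 4 of the 9, Asns, Atf3, Chac1 and Trib3, and in 3.91% of 32544 promoters. The cyclic AMP response element (TGACGTCA, which shares its first 6 bases with the unfolded protein response element) was present in Ppp1r15a alone and in 1.8% of all promoters. The matches are written in capitals, 5′ to 3′ on the strand of the gene. They lie on chromosome 6 for Asns (chr6:7693210-7693309, minus strand), chromosome 1 for Atf3 (chr1:191183390-191183489, minus strand), chromosome 2 for Chac1 (chr2:119351003-119351102, plus strand) and Trib3 (chr2:152344028-152344057, minus strand), and chromosome 7 for Ppp1r15a (chr7:45526269-45526368, minus strand).
Asns: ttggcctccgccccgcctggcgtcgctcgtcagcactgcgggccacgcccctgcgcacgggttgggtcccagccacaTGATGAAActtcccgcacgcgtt
Atf3: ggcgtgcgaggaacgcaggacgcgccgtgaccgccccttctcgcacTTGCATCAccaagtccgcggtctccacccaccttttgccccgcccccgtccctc
Chac1: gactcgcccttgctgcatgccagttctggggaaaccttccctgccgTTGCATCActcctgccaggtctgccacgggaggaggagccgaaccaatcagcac
Trib3: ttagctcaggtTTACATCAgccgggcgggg
Ppp1r15a: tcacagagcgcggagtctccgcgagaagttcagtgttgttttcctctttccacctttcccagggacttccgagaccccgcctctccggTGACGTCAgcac

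The Asns match reads on the strand of the gene and begins 23 bases before the transcription start. The Atf3, Chac1 and Trib3 matches read on the other strand, and the Trib3 match lies just after the start. The ER stress response element bound by ATF6 (CCAAT and CCACG with 9 bases between them, both strands) was in 0 of the 9 promoters and in 7 of the 13 promoters found for a list of 15 genes of ATF6 processing and its targets, against 0.12% of all promoters. Of the list genes called in an SSDS group against Control, Hspa5, Calr and Creld2 held the element. Pdia4, Manf and Sdf2l1 were not among the 7, and the Sdf2l1 promoter held no match to any motif searched. Hspa5 (chr2:34771984-34772083, plus strand), which encodes the chaperone BiP, and Calr (chr8:84847035-84847134, minus strand), which encodes calreticulin, are printed as examples of called genes that hold the element.
Hspa5: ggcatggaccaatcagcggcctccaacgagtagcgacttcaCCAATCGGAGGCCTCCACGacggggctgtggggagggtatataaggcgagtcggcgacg
Calr: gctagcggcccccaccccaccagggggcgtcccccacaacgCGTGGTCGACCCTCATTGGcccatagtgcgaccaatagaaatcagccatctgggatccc

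A match is a description of these letters and not a tested binding site. Neither the shorter ER stress response element II (ATTGG and CCACG with 1 base between them, both strands) nor the unfolded protein response element (TGACGTGG) was found in the 9 promoters, which says only that these letters are not in these windows; 0.0369% and 0.682% of all promoters hold them.

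Library totals ran from 14656714 to 17694570 counts. The first principal component of all tested genes held 31.3% of the variance and set SSDS-shACOT12 3, SSDS-shACOT12 1 and SSDS-GFP 3 apart from the other 9 libraries. SSDS-shACOT12 1 and SSDS-shACOT12 3 also had the lowest shares of mitochondrially encoded transcripts, 3.23% and 4.31% of counts, where the other libraries had 6.31% to 9.24%. The median SD of log2 CPM over all genes was 0.16 in Control and in CSDS, 0.25 for SSDS-GFP and 0.31 in SSDS-shACOT12. The members' values are given for each library. Levels are CPM, counts relative to the scaled library size, unless FPKM is named, and a call is an adjusted p under 0.05 over all 16915 genes in the edgeR quasi-likelihood test.

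Per gene length, Atf4 was the most abundant of the 10, at 55.1 ± 9.63 FPKM (SD over 12 libraries), followed by Asns at 34.7 ± 3.36 and Ddit3 at 13.2 ± 2.73 FPKM. Atf4 exceeded Asns, and Asns exceeded Ddit3, in 12 of 12 libraries. Atf6 followed at 8.24 ± 2.04 FPKM, below Ddit3 in 10 of the 12. Ppp1r15a at 4.69 ± 1.07, Chac1 at 3.98 ± 0.556 and Eif2ak3 at 3.58 ± 0.483 FPKM were close neighbours: Ppp1r15a exceeded Chac1 in 9 libraries and Chac1 exceeded Eif2ak3 in 7. The order of the next pair was not fixed either, because Atf3 had the higher mean, 1.57 ± 2.32 against 1.06 ± 0.229 FPKM for Ern1, but exceeded it in only 3 libraries. Trib3, a pseudokinase induced by ATF4, was the lowest in 11 of the 12 libraries (Atf3 was lower in CSDS 3) at 0.27 ± 0.155 FPKM, from 3 to 22 counts.

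**Figure D1:**
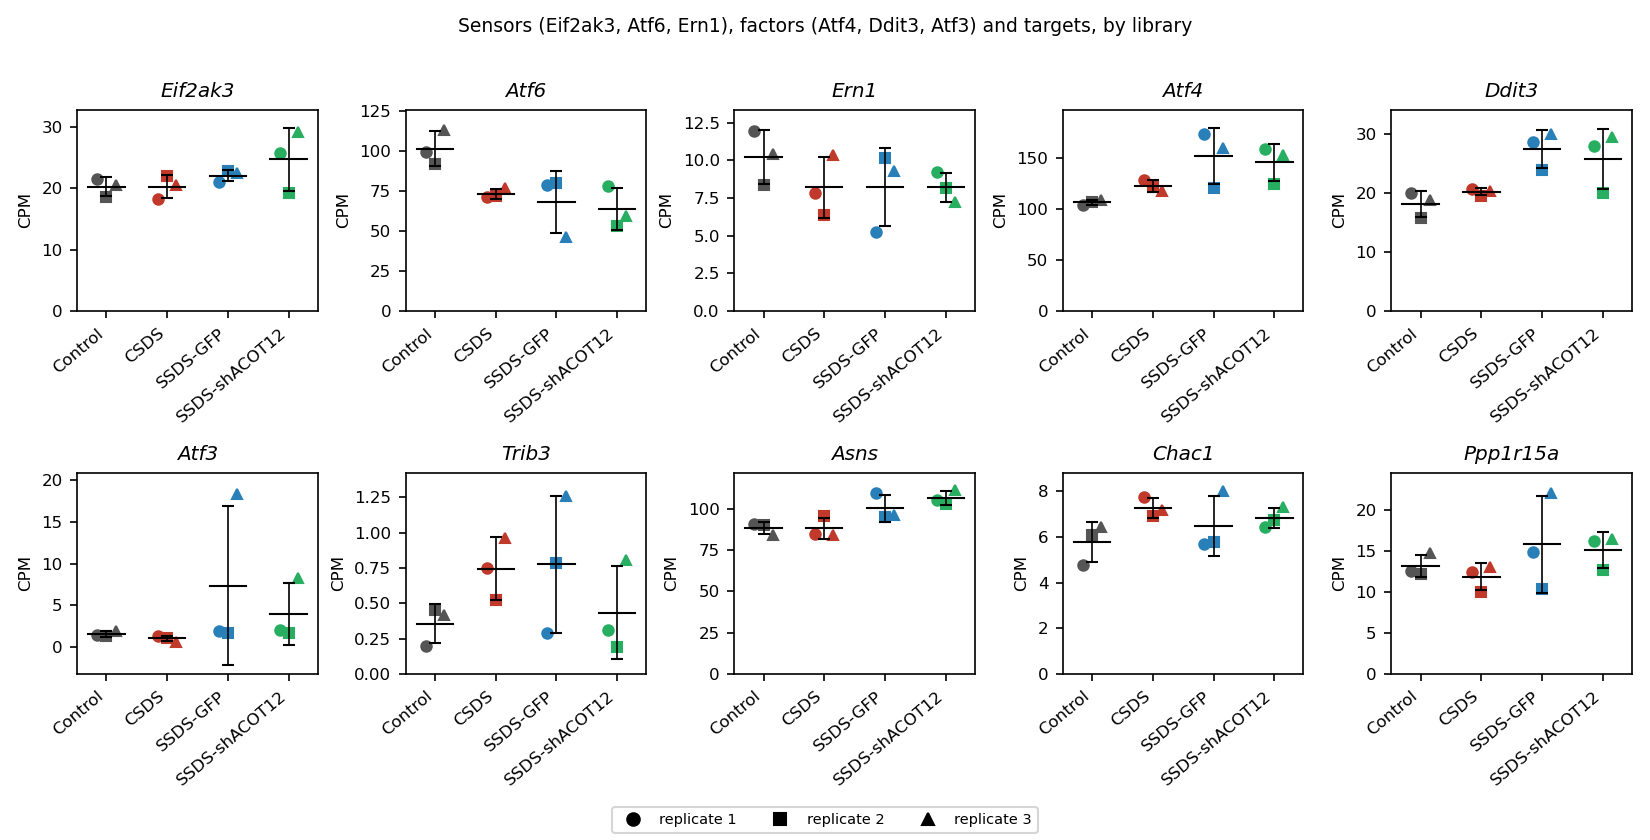
CPM (y axis, starting at 0 except for Atf3, whose error bar extends below 0) of the 10 genes in each library by group (x axis), with the shape of a point giving the replicate number, the horizontal line the mean and the bar the SD over 3 libraries. Atf6 is lower in all 9 other libraries than in any Control library, and the Atf3 points of SSDS-GFP 3 and SSDS-shACOT12 3 stand above the other 10.

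The sensors came first in the comparison of groups. Atf6 (chr1:170704674-170867771, minus strand; all gene positions are mm10, per the deposited table) was below Control in every other library. It measured 99.6, 92.2 and 113 CPM in Control, 71.3, 72.2 and 76.8 in CSDS, 78.8, 80.0 and 46.1 for SSDS-GFP, and 78.6, 53.5 and 59.5 in SSDS-shACOT12. All 9 libraries outside Control lay below the lowest Control library, with SSDS-GFP 3 the lowest of all. The log2 difference from Control was -0.47 ± 0.20 (SE; unadjusted p = 0.0339, adjusted p = 0.849 in edgeR) for CSDS, -0.58 ± 0.20 (unadjusted p = 0.0126, adjusted p = 0.201) for SSDS-GFP and -0.67 ± 0.20 (unadjusted p = 0.00503, adjusted p = 0.0839) for SSDS-shACOT12, and none was called. The 3 comparisons share the Control libraries. In bulk tissue, fewer cells of a type and less RNA per cell cannot be told apart. The 10 dentate gyrus markers together were also highest in Control, at 727 to 888 CPM against 495 to 626 in CSDS, 576 to 619 for SSDS-GFP and 309 to 669 for SSDS-shACOT12. The 10 neuron markers together were lowest in SSDS-GFP 3, at 8565 CPM against 9943 to 11348 elsewhere. Over the 12 libraries, which share their groups, the log2 CPM of Atf6 correlated with the dentate gyrus sum (r = 0.69) and with the neuron sum (r = 0.64). After each group's mean was removed the values were 0.47 and 0.72. No marker of the dentate gyrus or neuron list was at 0 in any library, and the part of these cells in the Atf6 values was not tested.

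Eif2ak3 (chr6:70844515-70905245, plus strand), which encodes PERK, was even across Control, CSDS and SSDS-GFP. It stood at 21.6, 18.5 and 20.6 CPM in Control, 18.3, 21.9 and 20.5 in CSDS, 21.01, 22.7 and 22.4 for SSDS-GFP, and 25.7, 19.2 and 29.2 in SSDS-shACOT12. SSDS-shACOT12 1 and 3 held the highest values, while SSDS-shACOT12 2 lay within the Control range. The log2 difference between SSDS-shACOT12 and Control was 0.29 ± 0.15 (adjusted p = 0.259 in edgeR). Without SSDS-shACOT12 2 it was 0.43 and was called (adjusted p = 0.0274, lowest of a range of 0.0274 to 0.879 over 23 alternatives). That fit called 4232 genes in SSDS-shACOT12.

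Ern1 (chr11:106394650-106487852, minus strand), which encodes IRE1, was the sensor with the fewest transcripts. It stood at 11.9, 8.37 and 10.4 CPM in Control, 7.83, 6.39 and 10.4 in CSDS, 5.27, 10.2 and 9.26 for SSDS-GFP, and 9.22, 8.15 and 7.25 in SSDS-shACOT12. Every group overlapped Control. The log2 differences from Control were nearly the same in the 3 groups, -0.32 for CSDS, -0.31 for SSDS-GFP and -0.32 for SSDS-shACOT12, each with an SE of 0.25 and adjusted p from 0.452 to 0.922 in edgeR.

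Among the transcription factors, Atf4 (chr15:80255184-80257541, plus strand) was tight in Control and wider in the SSDS groups, as was the median gene. It measured 104, 106 and 109 CPM in Control, 129, 121 and 117 in CSDS, 174, 121 and 159.8 for SSDS-GFP, and 159, 125 and 153 in SSDS-shACOT12. All 9 other libraries lay above the highest Control library, and replicate 2 was the lowest in both SSDS groups. Mean levels were 106 ± 2.24 CPM (SD, n = 3) in Control, 122 ± 5.73 in CSDS, 151 ± 27.4 for SSDS-GFP and 146 ± 18.2 in SSDS-shACOT12. The SD of log2 CPM of Atf4 was 0.03 in Control, 0.27 for SSDS-GFP and 0.19 in SSDS-shACOT12. It was higher than that of 3.61%, 55.8% and 24.2% of tested genes in the same group. The log2 difference was 0.51 ± 0.14 for SSDS-GFP against Control (unadjusted p = 0.00346, adjusted p = 0.140 in edgeR) and 0.45 ± 0.14 for SSDS-shACOT12 against Control (unadjusted p = 0.00753, adjusted p = 0.0948). For CSDS it was 0.20 ± 0.14 (adjusted p = 0.912).

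Ddit3, which encodes the pro-apoptotic factor CHOP, followed Atf4 across libraries. It stood at 20.1, 15.8 and 18.8 CPM in Control, 20.8, 19.6 and 20.4 in CSDS, 28.7, 23.9 and 30.02 for SSDS-GFP, and 28.0, 19.99 and 29.5 for SSDS-shACOT12. The SSDS-GFP libraries all exceeded Control, whereas SSDS-shACOT12 2 lay inside the Control range. The log2 difference from Control was 0.60 ± 0.16 for SSDS-GFP (unadjusted p = 0.00255, adjusted p = 0.130 in edgeR), 0.50 ± 0.16 for SSDS-shACOT12 (unadjusted p = 0.00788, adjusted p = 0.0956) and 0.15 ± 0.16 for CSDS (adjusted p = 0.942). Ddit3 (chr10:127290774-127296288, plus strand) overlaps the 3′ end of Mars on the opposite strand, a gene with 8931 counts over the 12 libraries. Since the strand setting of the counting is not given in the sources used here, reads in the shared stretch cannot be assigned to either gene.

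Atf4 and Ddit3 rested on the choice of test and of libraries. DESeq2 called both genes in SSDS-GFP against Control (adjusted p = 0.0263 and 0.0278) and in SSDS-shACOT12 against Control (0.0357 and 0.0495), as did limma-voom with library quality weights. Over the 23 alternatives, edgeR, DESeq2 and limma together, the adjusted p ran from 0.00511 to 0.443 for Atf4 and from 0.00796 to 0.442 for Ddit3 in SSDS-GFP, and from 0.0111 to 0.481 and 0.00902 to 0.698 in SSDS-shACOT12. Without SSDS-shACOT12 2, edgeR called both in SSDS-shACOT12, at log2 differences of 0.54 for Atf4 and 0.65 for Ddit3 (adjusted p = 0.0165 and 0.00902). That fit called 4232 genes in SSDS-shACOT12, against 14 with all 12 libraries. Both genes kept a positive log2 difference from Control in all 3 groups under every alternative run.

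**Figure D2:**
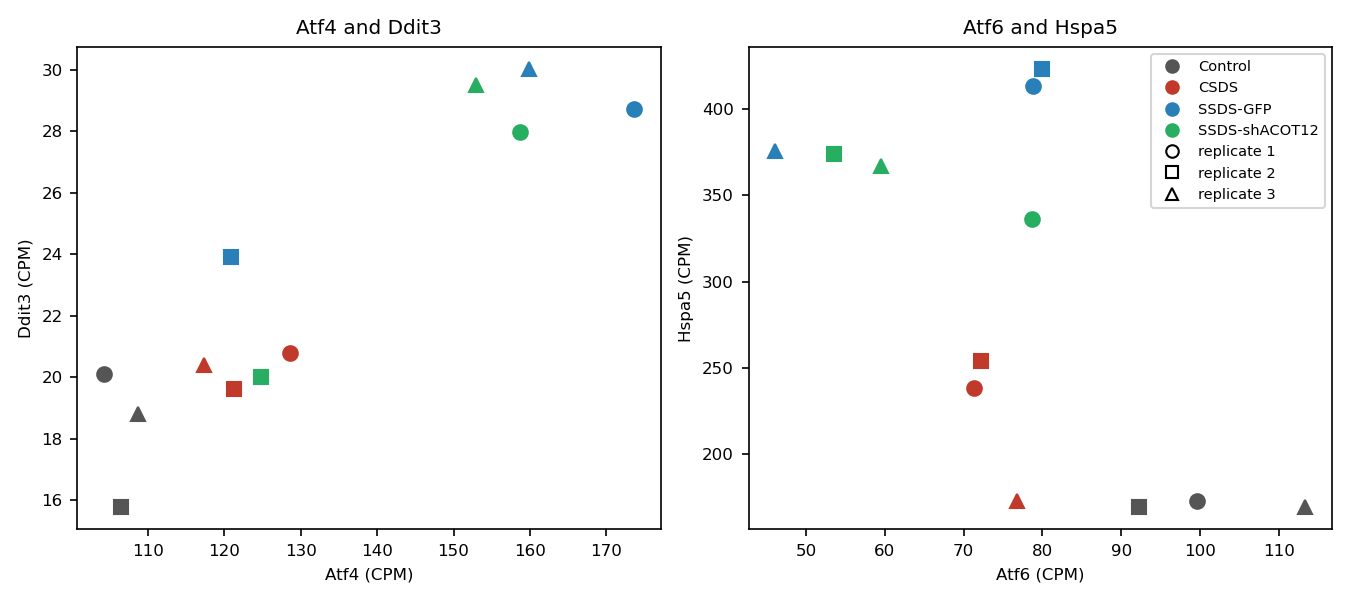
Left, CPM of Ddit3 (y axis) against CPM of Atf4 (x axis); right, CPM of Hspa5 (y axis) against CPM of Atf6 (x axis), 1 point per library, coloured by group and shaped by replicate. The 4 SSDS libraries of replicates 1 and 3 form the upper right of the left panel, and on the right the 6 SSDS libraries lie between 336 and 423 CPM of Hspa5 with Atf6 at or under 80.0 CPM.

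Across the 12 libraries, which share their groups, the log2 CPM of Atf4 and Ddit3 correlated at r = 0.91, and at r = 0.73 after the mean of each group was removed. Atf4 and Asns gave 0.74 and 0.45. With the summed CPM of the mitochondrially encoded genes, low in SSDS-shACOT12 1 and 3, the group-centred r was -0.59 for Atf4 and -0.66 for Ddit3. These are descriptions of 12 libraries and the part of RNA quality or tissue composition in them was not tested.

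Atf3 (chr1:191170296-191218039, minus strand), a factor induced early by many stresses, was set apart by a pair of libraries. Control held 1.39, 1.298 and 1.90 CPM, CSDS 1.25, 1.10 and 0.604, SSDS-GFP 1.88, 1.71 and 18.4, and SSDS-shACOT12 2.04, 1.59 and 8.24. SSDS-GFP 3 and SSDS-shACOT12 3 therefore stood far above the other 10 libraries, and the remaining SSDS libraries lay within or just above the Control range. All CSDS libraries were below all Control libraries, at 10 to 20 counts each. The log2 difference from Control was 2.26 ± 0.85 for SSDS-GFP (unadjusted p = 0.0198, adjusted p = 0.240 in edgeR), 1.36 ± 0.86 for SSDS-shACOT12 (adjusted p = 0.336) and -0.64 ± 0.93 for CSDS (adjusted p = 0.970). With no filter on low counts edgeR called Atf3 in SSDS-GFP (adjusted p = 4.0e-05) and SSDS-shACOT12 (adjusted p = 0.0264), the lowest of its alternatives, whose highest were 0.922 and 0.957. With SSDS-GFP 3 and SSDS-shACOT12 3 left out, an alternative chosen after the data were seen, the log2 differences of the SSDS groups from Control were 0.22 and 0.24. The fitted biological coefficient of variation of Atf3, 0.661, was higher than that of 99.3% of tested genes, whose median was 0.182.

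**Figure D3:**
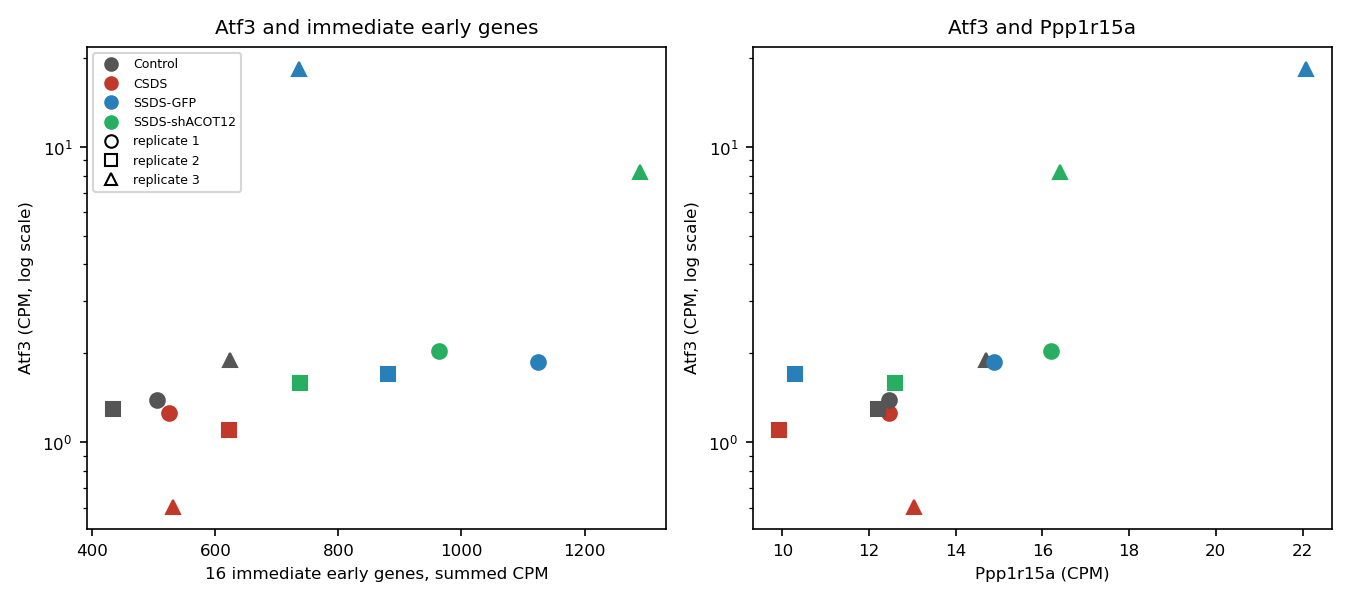
CPM of Atf3 (y axis, log scale) against the summed CPM of 16 immediate early genes (left) and against the CPM of Ppp1r15a (right), 1 point per library. SSDS-GFP 3 holds the highest Atf3 and Ppp1r15a, 18.4 and 22.1 CPM, with an immediate early gene sum of 737 CPM, the lowest of its group.

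The libraries with high Atf3 did not share their level of immediate early genes, a class that includes Fos and Egr2 and marks recent neuronal activity. The 16 genes summed to 434 to 624 CPM in Control and 525 to 622 in CSDS, whereas the SSDS-GFP libraries reached 737 to 1125 and the SSDS-shACOT12 libraries 738 to 1290. SSDS-shACOT12 3 had the highest sum and SSDS-GFP 3 the lowest of its group. All 16 had a positive log2 difference from Control in either SSDS group, 11 of 16 at an unadjusted p under 0.05 in SSDS-GFP and 13 of 16 in SSDS-shACOT12, where 8.92% and 13.6% of all genes were higher at that p. The phosphatase gene Dusp1 alone was called in SSDS-GFP, with 23.4 ± 3.58 CPM against 12.0 ± 1.16 in Control (log2 0.96 ± 0.16, adjusted p = 0.0440 in edgeR). This call was lost without any 1 of the Control or CSDS libraries, SSDS-GFP 1 or SSDS-GFP 3. None of the 16 was called in SSDS-shACOT12 by edgeR, against 8 by DESeq2 and 13 by limma-voom, which called 1493 and 4172 of all 16915 genes. Without SSDS-shACOT12 2, edgeR called 12 of the 16 there, and 4232 genes in all. Fos stood at 3.98, 1.62 and 5.35 CPM in Control and 14.4, 12.99 and 49.99 for SSDS-shACOT12, so that SSDS-shACOT12 3 was far above the other 2. The log2 difference was 2.81 ± 0.51 (adjusted p = 0.0531) and 1.89 without SSDS-shACOT12 3. Both SSDS groups together, a contrast chosen after the data were seen, gave 6 calls in this list, all higher: Fos, Fosl2, Jun, Junb, Egr2 and Dusp1, with log2 differences from 0.53 for Jun (adjusted p = 0.0448) to 2.54 for Fos (adjusted p = 0.0321). That contrast called 3.11% of all genes.

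The targets of ATF4 in the set gave 4 different patterns. Asns (chr6:7675169-7693254, minus strand), which encodes asparagine synthetase, had the lowest biological coefficient of variation of the 10, 0.114. It stood at 90.9, 90.1 and 84.2 CPM in Control, 84.8, 95.7 and 84.2 in CSDS, 109.6, 95.2 and 96.1 for SSDS-GFP, and 105.5, 103 and 111 in SSDS-shACOT12. Every SSDS library exceeded every Control library, by a small margin. The log2 difference from Control was 0.18 ± 0.11 for SSDS-GFP (adjusted p = 0.455 in edgeR) and 0.27 ± 0.11 for SSDS-shACOT12 (unadjusted p = 0.0294, adjusted p = 0.163), and -0.00 ± 0.11 for CSDS (adjusted p = 0.999).

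Ppp1r15a (chr7:45522916-45526268, minus strand), which encodes the eIF2 phosphatase subunit GADD34, was highest in SSDS-GFP 3. It measured 12.5, 12.2 and 14.7 CPM in Control, 12.5, 9.93 and 13.04 in CSDS, 14.9, 10.3 and 22.1 for SSDS-GFP, and 16.2, 12.6 and 16.4 in SSDS-shACOT12. Every group overlapped Control. The log2 difference was 0.27 ± 0.23 for SSDS-GFP (adjusted p = 0.618 in edgeR) and turned to -0.06 without SSDS-GFP 3. It was 0.20 ± 0.23 for SSDS-shACOT12 (adjusted p = 0.616) and -0.15 ± 0.24 for CSDS (adjusted p = 0.972). Ppp1r15a and Atf3 correlated at r = 0.79 over the 12 libraries and at 0.72 after group means were removed, a value in which SSDS-GFP 3 is the extreme point of both genes.

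Chac1 (chr2:119351229-119354381, plus strand), a glutathione-degrading enzyme, was above Control in all CSDS libraries. It stood at 4.77, 6.10 and 6.42 CPM in Control, 7.77, 6.91 and 7.18 in CSDS, 5.70, 5.78 and 8.01 for SSDS-GFP, and 6.43, 6.75 and 7.31 for SSDS-shACOT12. The log2 differences were 0.34 ± 0.19 for CSDS (adjusted p = 0.881 in edgeR), 0.17 ± 0.20 for SSDS-GFP (adjusted p = 0.715) and 0.24 ± 0.20 for SSDS-shACOT12 (adjusted p = 0.455). Trib3 (chr2:152337422-152344032, minus strand) was near the limit of this depth, with 0.20, 0.45 and 0.42 CPM in Control, 0.75, 0.52 and 0.97 in CSDS, 0.29, 0.79 and 1.26 for SSDS-GFP, and 0.31, 0.19 and 0.81 for SSDS-shACOT12. The CSDS libraries exceeded all Control libraries (log2 1.04 ± 0.61, adjusted p = 0.884 in edgeR), a difference of a few counts. For SSDS-GFP the log2 difference was 1.13 ± 0.61 (adjusted p = 0.399), and for SSDS-shACOT12 0.28 ± 0.65 (adjusted p = 0.817), which became -0.51 without SSDS-shACOT12 3.

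**Figure D4:**
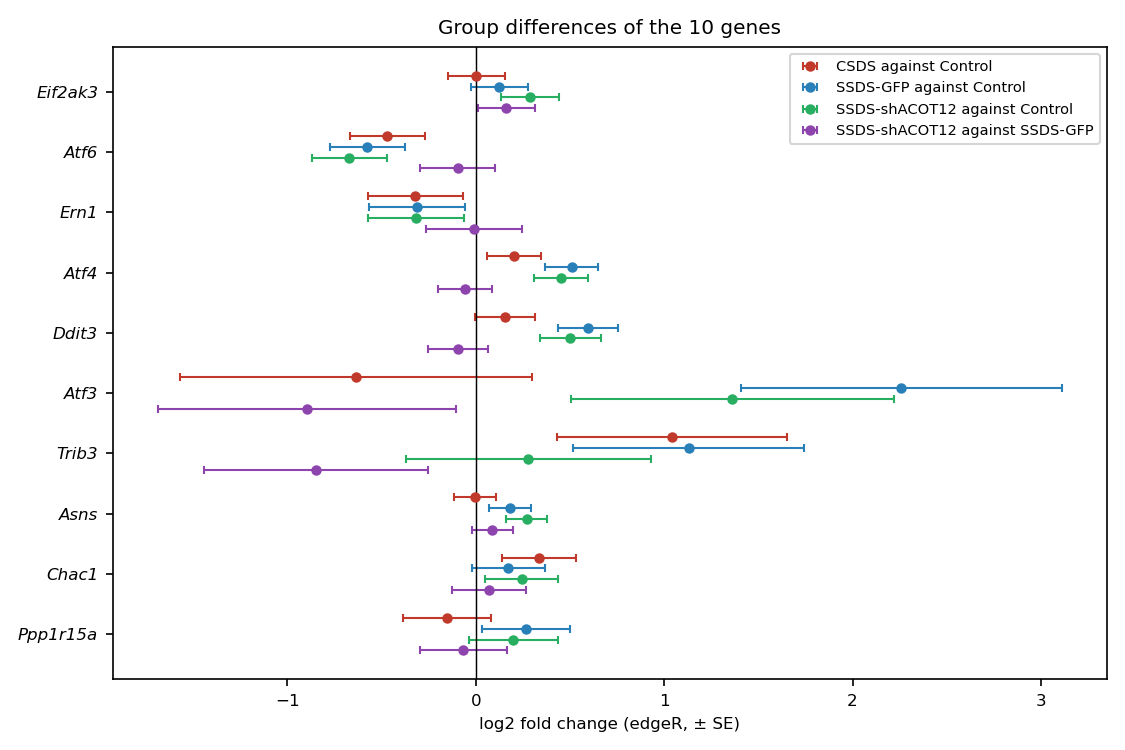
Log2 fold change with its SE (x axis) of the 10 genes (y axis) in 4 comparisons. In both SSDS groups against Control, Atf4, Ddit3, Asns and Atf3 lie to the right of 0 and Atf6 and Ern1 to the left by more than their SE. The SSDS-shACOT12 against SSDS-GFP points of these genes lie within 1 SE of 0, except that of Atf3.

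Counted over the set, 0 of 10 genes were called in CSDS against Control, where edgeR called 0% of all genes, DESeq2 and limma-voom likewise called 0 of the 10, and 1 of the 10 had an unadjusted p under 0.05 (lower) against 5.87% of all genes (2.86% higher, 3.01% lower). The groups did not overlap for 5 of the 10, Atf4, Trib3 and Chac1 above and Atf3 and Atf6 below Control, against 20.3% of all genes (10.2% higher, 10.1% lower). For Atf3 and Trib3 this rests on few counts. The nearest libraries held 20 (CSDS 1) and 20 (Control 2) counts of Atf3, and 9 (CSDS 2) and 7 (Control 2) of Trib3. The median log2 difference of the set was -0.00 and that of all genes 0.00.

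In SSDS-GFP against Control edgeR called 0 of 10, where it called 0.0946% of all genes, DESeq2 called 2 (Atf4 and Ddit3) and limma-voom 3 (these and Atf6). Over all 16915 genes DESeq2 called 531 and limma-voom 2239. An unadjusted p under 0.05 was found for 4 of 10 (Atf4, Ddit3, Atf3 and Atf6) and for 15.2% of all genes (8.92% higher, 6.23% lower). The groups did not overlap for 4 (Atf4, Ddit3 and Asns above, Atf6 below) against 23.9% of all genes (12.5% higher, 11.4% lower), and the median log2 difference was 0.22 against 0.01 for all genes. In SSDS-shACOT12 against Control edgeR called 0 of 10 and 0.0828% of all genes, and DESeq2 and limma-voom each called 3 (Atf4, Ddit3 and Atf6). Here DESeq2 called 1493 and limma-voom 4172 of all 16915 genes. An unadjusted p under 0.05 was found for 4 of 10 (Atf4, Ddit3, Asns and Atf6) and 24.2% of all genes (13.6% higher, 10.7% lower). The groups did not overlap for 4 (Atf4, Asns and Chac1 above, Atf6 below) against 25.5% (14% higher, 11.6% lower), and the median was 0.27 against 0.01. These last 2 comparisons share the Control libraries.

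Both SSDS groups together were also set against Control, a contrast chosen after the data were seen. It gave 526 calls over all genes, or 3.11%, and 0 of 10 in the set by edgeR, with adjusted p just above the threshold for Ddit3 (0.0534), Atf4 (0.0557) and Atf6 (0.0598). DESeq2 called these 3 and limma-voom these and Asns, where they called 1542 and 4769 of all 16915 genes. An unadjusted p under 0.05 was found for 5 of the 10 against 23.8% of all genes (13.2% higher, 10.6% lower). The groups did not overlap for 2 genes above and 1 below Control, against 12.5% of all genes (7.29% higher, 5.16% lower). The log2 differences were 0.55 ± 0.14 for Ddit3, 0.48 ± 0.13 for Atf4 and -0.62 ± 0.17 for Atf6.

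SSDS-shACOT12 and SSDS-GFP share the SSDS exposure and differ in the liver knockdown, as labelled. Since a virus is named for SSDS-GFP alone, a difference in virus cannot be told apart from the knockdown. None of the 10 genes separated the groups, where 4.81% of all genes did (2.23% higher, 2.58% lower). By edgeR, DESeq2 and limma-voom 0 of 10 were called (0% of all genes in edgeR), and 0 of 10 had an unadjusted p under 0.05 against 4.53% of all genes (1.84% higher, 2.68% lower). The log2 differences were -0.06 ± 0.14 for Atf4, -0.09 ± 0.16 for Ddit3, -0.10 ± 0.20 for Atf6, 0.16 ± 0.15 for Eif2ak3 and 0.09 ± 0.11 for Asns, with adjusted p from 0.803 to 0.994 over the 10. Set side by side by replicate number, Ddit3 was lower in SSDS-shACOT12 in 3 of 3 pairs, and each of the other 9 genes had pairs of both signs. With the replicate number as a block the log2 difference of Ddit3 was -0.10 (adjusted p = 0.840 in edgeR). The largest in size, -0.90 ± 0.79 for Atf3, turned to 1.13 without SSDS-GFP 3. The test of any difference among the 4 groups called 0.0887% of all genes and 0 of the 10 in edgeR, against 2 by DESeq2 and 4 by limma-voom. In that test DESeq2 called 736 and limma-voom 4440 of all 16915 genes. Ddit3 (unadjusted p = 0.00749), Atf4 (0.0127), Atf3 (0.0188) and Atf6 (0.0191) were under 0.05 unadjusted, where 14.4% of all genes were.

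Other genes of the same pathways were taken from lists. Among these lists, that of ATF6 processing and targets held most of the edgeR calls in either SSDS group against Control. A place in a list does not show which branch acted on a gene, and this was not tested. Of 15 genes of ATF6 processing and ATF6 targets, 6 rose in SSDS-GFP against Control and 6 in SSDS-shACOT12 against Control, Hspa5, Calr, Pdia4, Creld2, Manf and Sdf2l1 in each, and 0 fell. In these 2 comparisons edgeR called 0.0946% and 0.0828% of all genes. The contrast of both SSDS groups with Control called 10, all higher, and 3.11% of all genes. The median log2 difference of the list was 0.66 in SSDS-GFP and 0.60 in SSDS-shACOT12. BiP transcripts (Hspa5) stood at 173, 169.5 and 169.9 CPM in Control, 238, 254 and 173 in CSDS, 413, 423 and 376 for SSDS-GFP, and 336, 374 and 367 in SSDS-shACOT12. All 6 SSDS libraries lay above every CSDS library, and CSDS 3 lay just above Control. The log2 difference from Control was 1.24 ± 0.14 (adjusted p = 0.00275 in edgeR) in SSDS-GFP and 1.07 ± 0.14 (adjusted p = 0.0208) in SSDS-shACOT12. Sdf2l1, an ER resident partner of BiP, rose from 9.64 ± 0.467 CPM in Control to 27.3 ± 3.08 and 26.5 ± 1.56 (log2 1.498 ± 0.14, adjusted p = 0.00133, and 1.46 ± 0.14, adjusted p = 0.00179). Pdia4, a disulfide isomerase, rose from 29.6 ± 2.32 to 65.6 ± 2.88 and 56.7 ± 4.55 CPM (adjusted p = 0.00275 and 0.0208).

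In CSDS against Control none of the 15 was called by edgeR or DESeq2 and 1 by limma-voom, which called 34 of all genes. An unadjusted p under 0.05 was found for 8, all higher than Control, where 2.86% of all genes were higher at that p. The median log2 difference of the list was 0.28. Sdf2l1 measured 14.0 ± 1.91 CPM in CSDS (log2 0.53 ± 0.14, adjusted p = 0.849) and Hspa5 222 ± 43.1 CPM (log2 0.38 ± 0.14, adjusted p = 0.849). The Atf6 transcript itself was thus low in the same libraries in which these genes were high: over the 12 libraries Atf6 and Hspa5 correlated at r = -0.66, and at 0.00 once group means were removed. The calls of this list depended on the libraries in the fit. In SSDS-shACOT12 against Control the count was 6 and went from 1 without any of Control 1, Control 2, Control 3, SSDS-GFP 1 or SSDS-shACOT12 3 (Sdf2l1 each time) to 10 without SSDS-shACOT12 2, and it was 0 when only the 6 libraries compared were fitted. The fit without SSDS-shACOT12 2 called 4232 genes in this comparison.

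**Figure D5:**
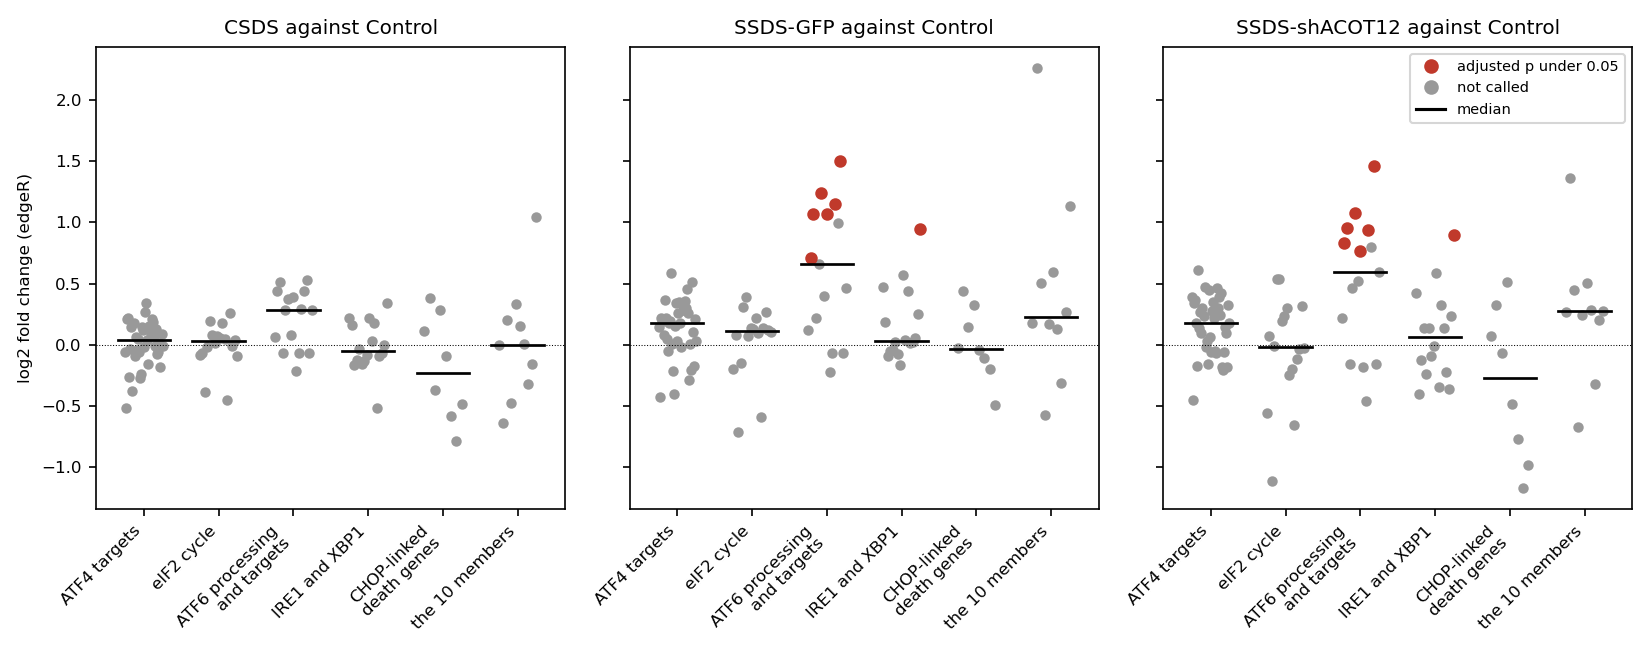
Log2 fold change (y axis) of each tested gene in 5 pathway lists and in the set of 10 (x axis), for 3 comparisons against Control, with genes called by edgeR in red and the list's median as a bar. The red points lie in the ATF6 list, 6 in each SSDS comparison, and in the IRE1 and XBP1 list, where the 1 red point is Xbp1.

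Of 16 genes of the IRE1 and XBP1 branch, 1 rose in each SSDS group and 0 fell, where edgeR called 0.0946% and 0.0828% of all genes. The median log2 difference was 0.03 and 0.06. The gene that rose was Xbp1, whose mRNA is spliced by IRE1 to encode a transcription factor. It stood at 53.7, 61.1 and 61.4 CPM in Control, 82.3, 68.9 and 72.4 in CSDS, 114, 109 and 117 for SSDS-GFP, and 112, 98.6 and 117 for SSDS-shACOT12. The groups followed each other without overlap from Control through CSDS to either SSDS group. The log2 difference from Control was 0.95 ± 0.12 (adjusted p = 0.00694 in edgeR) and 0.89 ± 0.12 (adjusted p = 0.0208) in the SSDS groups, and 0.34 ± 0.12 (adjusted p = 0.849) in CSDS. The call was lost in SSDS-GFP without Control 1 or SSDS-GFP 1, and in SSDS-shACOT12 without Control 1, 2 or 3, SSDS-GFP 1 or SSDS-shACOT12 3. Counts per gene do not separate the spliced from the unspliced form. Without SSDS-shACOT12 2 the list's count of calls in SSDS-shACOT12 was 7, among 4232 genes called. The translocon subunit Sec61b and the BiP partner Dnajb11 were not called in SSDS-GFP, at log2 differences of 0.57 ± 0.13 and 0.47 ± 0.11 (adjusted p = 0.116 and 0.127). Both were called, with Xbp1, in the contrast of both SSDS groups with Control, at 0.58 ± 0.11 and 0.45 ± 0.10 (adjusted p = 0.0372 and 0.0392).

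Of 39 further ATF4 targets, mainly amino acid transporters, enzymes of serine synthesis and aminoacyl-tRNA synthetases, 37 were tested and 0 were called by edgeR against Control in either SSDS group or in CSDS. DESeq2 called 2 in SSDS-GFP and 4 in SSDS-shACOT12, limma-voom 5 and 9, and both called 0 in CSDS. Over all 16915 genes DESeq2 called 531 in SSDS-GFP, 1493 in SSDS-shACOT12 and 6 in CSDS, and limma-voom 2239, 4172 and 34. Without SSDS-shACOT12 2, edgeR called 10 of the list in SSDS-shACOT12, where it called 4232 genes in all. An unadjusted p under 0.05 was found for 1 higher and 0 lower in CSDS, where 2.86% and 3.01% of all genes were. In SSDS-GFP it was found for 5 higher and 1 lower, against 8.92% and 6.23% of all genes. In SSDS-shACOT12 it was found for 9 higher and 0 lower, against 13.6% and 10.7%. The median log2 difference was 0.18 in each. Herpud1, an ER degradation factor, was the gene with the smallest p in the test over the 4 groups, with 43.2 ± 2.63 CPM in Control, 44.6 ± 2.71 in CSDS, 64.7 ± 6.24 for SSDS-GFP and 59.99 ± 4.51 in SSDS-shACOT12 (log2 0.58 ± 0.12, adjusted p = 0.0907, and 0.47 ± 0.12, adjusted p = 0.0587, for the SSDS groups). It was the 1 gene of the list called in the contrast of both SSDS groups with Control (log2 0.53 ± 0.10, adjusted p = 0.0372). Seryl-tRNA synthetase (Sars) and leucyl-tRNA synthetase (Lars) had opposite signs: in SSDS-GFP the log2 difference was 0.29 ± 0.13 for Sars and -0.40 ± 0.11 for Lars (adjusted p = 0.309 and 0.142). Of the 31 promoters found for this list, 12 held the C/EBP-ATF response element, Herpud1 among them, against 3.91% of all promoters. Herpud1 was also the 1 gene of the list with the ER stress response element II, which 0.0369% of all promoters hold.

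None of the 16 genes of eIF2, its kinases, phosphatase and exchange factor was called by edgeR in any comparison of an SSDS group or CSDS with Control, where 1, 3 and 6 genes had an unadjusted p under 0.05 in CSDS, SSDS-GFP and SSDS-shACOT12, as had 5.87%, 15.2% and 24.2% of all genes. DESeq2 called 0, 1 and 4 of them and limma-voom 0, 4 and 10. Over all 16915 genes DESeq2 called 6, 531 and 1493, and limma-voom 34, 2239 and 4172. The edgeR fit without SSDS-shACOT12 2 called 10 of the list in SSDS-shACOT12, and 4232 genes in all. The interferon-induced kinase PKR (Eif2ak2) measured 6.40 ± 1.55 CPM in Control, 4.88 ± 0.224 in CSDS, 3.90 ± 0.556 for SSDS-GFP and 2.96 ± 0.142 in SSDS-shACOT12, and the log2 difference of the last from Control was -1.11 ± 0.22 (adjusted p = 0.0531). The eIF2 gamma subunit gene Eif2s3x was below Control in all 9 other libraries, with 59.96 ± 4.62 CPM in Control, 44.0 ± 5.70 in CSDS, 39.9 ± 2.79 for SSDS-GFP and 38.1 ± 6.48 in SSDS-shACOT12 (adjusted p = 0.849, 0.127 and 0.0531). Eif2b2, a subunit of the eIF2 exchange factor, stood at 30.2 ± 2.75 CPM in Control and 43.9 ± 9.89 in SSDS-shACOT12 (log2 0.54 ± 0.16, adjusted p = 0.0880). Both SSDS groups together, the contrast chosen after the data were seen, gave 2 calls in this list, Eif2ak2 at log2 -0.91 ± 0.18 (adjusted p = 0.0378) and Eif2s3x at -0.62 ± 0.12 (adjusted p = 0.0372), both lower. Of all genes, 3.11% were called in it.

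The 8 genes listed as linked to CHOP and cell death include the death inhibitor Bcl2. Of the 8, 0 were called by edgeR against Control in any of the 3 groups. In SSDS-shACOT12 DESeq2 called 1 and limma-voom 3, and limma-voom called 1 in SSDS-GFP. Over all 16915 genes these counts were 1493, 4172 and 2239. The median log2 difference was -0.23 for CSDS, -0.03 for SSDS-GFP and -0.27 for SSDS-shACOT12. At an unadjusted p under 0.05, 1 was higher and 3 were lower in SSDS-shACOT12 (13.6% and 10.7% of all genes). In CSDS and SSDS-GFP 0 of the 8 were either way, where 5.87% and 15.2% of all genes were. The death-associated kinase gene Dapk3 stood at 35.4 ± 2.67 CPM in Control and 50.3 ± 11.1 in SSDS-shACOT12 (log2 0.51 ± 0.16, adjusted p = 0.0960), and Ero1l, an ER oxidase, at 30.6 ± 2.93 and 21.9 ± 6.21 CPM (log2 -0.48 ± 0.19, adjusted p = 0.154). Trp53inp1, a stress protein induced by p53, stood at 16.1 ± 4.26 and 8.16 ± 6.20 CPM (log2 -0.98 ± 0.42, adjusted p = 0.175). Its 3 SSDS-shACOT12 libraries held 6.50, 15.02 and 2.97 CPM, and the log2 difference was -1.77 without SSDS-shACOT12 2 and -0.58 without SSDS-shACOT12 3. Without SSDS-shACOT12 2, edgeR called these 3 genes, among 4232 genes called in SSDS-shACOT12.

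The mean profile of the 10 genes, taken as centred log2 CPM, was highest in SSDS-GFP 3 (0.54) and SSDS-shACOT12 3 (0.36) and lowest in SSDS-shACOT12 2 (-0.22). Without Atf3 these were 0.26, 0.19 and -0.21. Atf3 lay closest to the mean (r = 0.92 over 12 libraries), followed by Ppp1r15a (0.82) and Ddit3 (0.77), and Ern1 (0.02) and Atf6 (-0.54) lay farthest from it. Each gene is part of this mean, and genes that vary more weigh more in it. The r of Atf3, whose biological coefficient of variation (0.661) was the highest of the 10, is therefore largely set in advance. The 5 other genes most like the mean were Tagln2 (r = 0.92), Sema5b (0.92), Ccdc61 (0.91), Syngr2 (0.90) and Nfkb2 (0.90), over the same 12 libraries. They were picked for this r from all genes averaging 1 or more in log2 CPM and were not tested.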

How the data were processed

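An NEBNext Ultra RNA kit was used on 1 µg of RNA per sample, per the labels' protocols. Per the submitters' processing notes, the tools were HISAT2 2.0.5, featureCounts 1.5.0-p3 and DESeq2 (no version given), with the build mm10; the annotation release and strand setting are not given in the sources used here. The authors deposited raw counts per gene and FPKM values. FPKM, which the authors scaled by gene length and a library size of 0.958 to 1.06 times the count total, served only to rank the genes by level. The gene length in bases, another deposited column, was used for no test. Member coordinates equalled those of GENCODE M21 for 10 of 10 genes.

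Low counts were filtered with filterByExpr in edgeR 4.0.16 (minimum count 10, minimum total 15; R 4.3.3) and scaled by TMM. A quasi-likelihood model with group as its only factor was fitted to all 12 libraries, which left 8 residual degrees of freedom, and 2-sided p-values were adjusted by Benjamini-Hochberg over 16915 genes. The scripts were tested on simulated data. Every adjusted p is from edgeR unless DESeq2 1.42.0 or limma 3.58.1 is named. CPM are edgeR values. SD is over libraries and SE is from the model. Correlations use log2 CPM. No pair of libraries held identical counts. The members, the lists and the rule for naming genes (all 10, and of each pathway list the 3 genes of smallest p among those averaging 1 or more in log2 CPM over the 4 groups, with every gene called, plus the 5 most like the members' mean) were chosen with earlier results of these data known. Calr, Creld2 and Manf are named as called genes.

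Alternatives were another scaling, DESeq2, limma-voom with library quality weights, 2 other filters, a replicate block, fits restricted to the compared libraries, mitochondrial genes left out, and each library left out. Added after the data were seen were the contrast of both SSDS groups with Control and leaving out the libraries that stand apart. Replicate numbers of SSDS-shACOT12 and SSDS-GFP paired the libraries by their deviations from the group means (correlations 0.196, 0.419 and 0.353), although no label says what a number shares; those of Control with each other group did not.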

Additional observations from a re-analysis of the deposited data

How the results depend on the processing

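Over the 23 alternatives, the log2 differences of Atf4, Ddit3 and Atf6 from Control kept their sign in all 3 groups, and 0 of 10 members were called in CSDS against Control or in SSDS-shACOT12 against SSDS-GFP. In the other comparisons the calls moved with the tool, and the cause was not tested.

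By DESeq2, members called were 2 in SSDS-GFP against Control, 3 in SSDS-shACOT12 against Control, 3 for both SSDS groups against Control and 2 for any difference, and genes called were 531, 1493, 1542 and 736, with 6 in CSDS against Control. By limma-voom, members called were 3, 3, 4 and 4, and genes called were 2239, 4172, 4769 and 4440, with 34 in CSDS. With no filter, members called were 2, 2, 4 and 2 in the same order, and genes called 608, 1741, 1726 and 1457, with 132 in CSDS and 108 in SSDS-shACOT12 against SSDS-GFP. At 50 counts in 3 libraries, SSDS-shACOT12 gave 350 genes. Both SSDS groups gave 3 members there, against 0 with the main filter, where 3.11% of all genes were called. The count over all genes for both groups under this filter is not given here, so the 3 are not set against it.

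With only the libraries compared, genes called were 84 in CSDS, 34 in SSDS-GFP, 0 in SSDS-shACOT12 and 10 for both SSDS groups against Control. The replicate block changed no member's call, and genes called were 9, 3 and 43 in SSDS-GFP, SSDS-shACOT12 and both SSDS groups, and 8 for any difference. With the block and only the libraries compared they were 87 in CSDS, 0 in SSDS-GFP, 0 in SSDS-shACOT12 and 5 for both.

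Without SSDS-GFP 3 and SSDS-shACOT12 3, genes called were 3 in CSDS, 2 in SSDS-shACOT12 and 48 for both SSDS groups. Without SSDS-shACOT12 1 as well they were 30 in CSDS, 20 in SSDS-shACOT12 against SSDS-GFP, 216 in SSDS-GFP, 735 in SSDS-shACOT12, 1454 for both and 474 for any difference, and Atf6 was the 1 member called in SSDS-shACOT12, for both and for any difference.

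Leaving out 1 library at a time gave 0 to 2 genes in CSDS, 0 to 985 in SSDS-shACOT12 against SSDS-GFP, 4 to 111 in SSDS-GFP, 1 to 4232 in SSDS-shACOT12, 3 to 2829 for both and 1 to 2181 for any difference. All upper ends but that of CSDS came without SSDS-shACOT12 2. Members called ranged from 0 to 3 in SSDS-shACOT12 and for both, and from 0 to 2 for any difference.

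Signs reversed for small differences. Asns in CSDS was 0.0035 with DESeq2 size factors, 0.0038 with DESeq2 and 0.0045 without the 3 libraries together. Eif2ak3 in CSDS was -0.053 by limma-voom, -0.0011 with no filter and -0.0023 without mitochondrial genes. In SSDS-shACOT12 against SSDS-GFP, limma-voom gave 0.43 for Atf3, 0.022 for Trib3, 0.095 for Ppp1r15a and 0.36 for Ern1, and the block with only the libraries compared gave 0.030 for Ern1. There, without SSDS-GFP 3 and SSDS-shACOT12 3, Atf3 was 0.023, Ppp1r15a 0.20 and Ern1 0.17, and without SSDS-shACOT12 1 too, Ppp1r15a was 0.010, Eif2ak3 -0.18 and Ern1 0.080. Against Control, without those 2 libraries, Chac1 was -0.0073 and Ppp1r15a -0.062 in SSDS-GFP and Trib3 -0.50 in SSDS-shACOT12. Without the 3, Chac1 was -0.0015 and Ppp1r15a -0.056 in SSDS-GFP, Trib3 -0.87, Ppp1r15a -0.045 and Eif2ak3 -0.063 in SSDS-shACOT12, and Trib3 -0.13 and Ppp1r15a -0.051 for both.

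With 1 library left out, the signs that reversed gave these ranges. In CSDS, Asns ran from -0.067 to 0.037 and Eif2ak3 from -0.060 to 0.072. In SSDS-shACOT12 against SSDS-GFP, Atf4 ran from -0.20 to 0.051, Ddit3 from -0.19 to 0.050, Atf3 from -2.01 to 1.13, Chac1 from -0.014 to 0.25, Ppp1r15a from -0.30 to 0.26, Atf6 from -0.32 to 0.028 and Ern1 from -0.24 to 0.16. In SSDS-GFP against Control, Ero1l ran from -0.15 to 0.070, Chac1 from -0.0033 to 0.26 and Ppp1r15a from -0.057 to 0.50, and in SSDS-shACOT12 Trib3 ran from -0.51 to 0.62. The ATF6 list gave 4 to 8 calls in SSDS-GFP, and with the replicate block 5 in SSDS-GFP and 3 in SSDS-shACOT12.

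At 3 to 22 counts for Trib3 and 10 to 321 for Atf3, differences of a few counts were not detectable.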
